A study of Homo sapiens with 12 samples.

Results

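The first week in differentiation medium was followed in clones of SaOS-2, an established human osteosarcoma cell line, that had been transfected with CD99, a small glycoprotein of the cell surface. 4 of the 12 arrays of the series carry this comparison: Sa/CD99 at day 7, with 1 array of clone wt22 and 1 of clone wt36, and Sa/CD99 at day 0, with 1 array of each clone. The arrays were chosen by their titles and paired by clone number. The other 8 are the same clones at day 14 and parental SaOS-2 at days 7, 0 and 14, with 2 arrays a group.

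Stable clones were made by calcium phosphate transfection and kept under neomycin. Cells were seeded in routine medium, and after some days were moved to an osteogenic medium with less serum, beta-glycerophosphate as a phosphate source and ascorbic acid, which collagen hydroxylation needs. Day 7 cells therefore differ from day 0 cells in medium, in serum and in time since seeding, and the effects of these cannot be told apart. Each clone is a single transfected line, so 2 clones stand for the transfected state. Nothing in the labels ties the parental arrays to separate cultures, so their spread, which enters the fit, may be technical. Each array profiles the RNA of a whole culture, in which fewer cells of a kind and less RNA per cell cannot be told apart.

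Osteoblasts are the cells that lay down bone. They arise from mesenchymal precursors under the control of the transcription factors RUNX2 and SP7, secrete a matrix rich in type I collagen, and then mineralize it with the help of alkaline phosphatase and acidic matrix proteins such as bone sialoprotein. BMP, TGF-beta and Wnt signals steer this course, which usually goes along with slower division. Osteosarcoma cells keep part of this programme, and the question behind the time course is how the transfected clones move through it.

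Values are log2 RMA signals of probe sets, the groups of short probes that stand for a transcript on the Affymetrix HG-U133 Plus 2.0 array. A gene was taken as measured when its linear signal exceeded 100 (log2 6.64) in at least 4 of the 12 arrays, and this left 9731 genes and 18677 probe sets of 54613. The probe set with the highest mean stood for a gene. "Rose", "fell", "higher" and "lower" at day 7 are used of genes with an adjusted p of at most 0.05 and a change of at least 1.5-fold, by a limma fit to all 12 arrays with the clone as a block. Where 2 values are given for a day they are those of wt22 and wt36, in that order, and a change is day 7 minus day 0 on the log2 scale.

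CD99 itself was checked first, and 1 of its probe sets goes against the label. The dimmer probe set gave 8.36 and 6.73 at day 7, against 6.67 and 6.73 at day 0 in the arrays labelled Sa/CD99, and 11.26 to 11.88 in the 6 arrays of SaOS-2. The brighter probe set gave 12.64 and 12.55 at day 7, against 12.33 and 12.32 at day 0 (log2 change 0.27, SE 0.07, adjusted p = 0.012), and 12.51 and 12.53 at day 7, against 12.31 and 12.29 at day 0 in SaOS-2. On the dimmer probe set the clones thus lie far under the parental line, and on the brighter the lines are close together on each day. On neither were the clones above the parental line by as much as 1.5-fold, and Sa/CD99 stands throughout for the arrays labelled so. A real-time PCR check of CD99 in both clones and the parental line is described by the study and was not analysed here.

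Osteoblast genes were checked against the label. At day 0 the clones had RUNX2 at 11.74 and 11.48, COL1A1 at 13.27 and 13.07, ALPL at 10.66 and 10.85 and SP7 at 8.31 and 7.86, all above the floor. SPP1, which encodes osteopontin, and the osteocyte genes DMP1, MEPE, PHEX and SOST did not pass the floor. The log2 difference of the 3' and 5' actin control probe sets, a measure of RNA integrity that rises as RNA breaks, was 0.46 in wt36 and 0.18 in wt22 at day 7, against 0.13 and 0.19 at day 0, and 0.11 to 0.24 in the remaining arrays. The wt36 array of day 7 thus stood highest on that measure. On the same difference for GAPDH the wt36 array of day 0 stood highest (0.20), with 0.14 for wt36 at day 7. The part of these differences in the results was not tested.

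Of 9731 genes, 613 rose (6.3% of those tested) and 567 fell (5.83%). By probe sets the counts were 1465 higher (7.84%) and 1101 lower (5.89%). At any fold, 7045 of the 18677 probe sets had an adjusted p of at most 0.05 by limma. At least as many had an unadjusted p under 0.05, so counts of list members at that level are to be read against this share. Among the genes that rose, 422 changed at least 1.5-fold in each clone taken alone, 193 rose at least 2-fold on average and 27 at least 4-fold. For the genes that fell these counts were 347, 156 and 20. The 4 arrays did not overlap between the days for 581 of the genes that rose and 529 of those that fell, and for 5292 of all genes tested (54.4%), so lack of overlap by itself marks no gene out here. The median change over all genes was -0.03 (-0.04 in wt22 and -0.01 in wt36).

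Between the clones, 2 of all genes tested changed at least 1.5-fold in opposite directions. Across probe sets the changes of wt22 and wt36 correlated with r = 0.772, a description over features that share arrays. With the 6 arrays labelled Sa/CD99 alone, which spread more between clones (SD of a pair's difference 0.34 to 0.36) than the parental pairs do (0.11 to 0.13), 1226 probe sets rose and 911 fell.

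**Figure D1:**
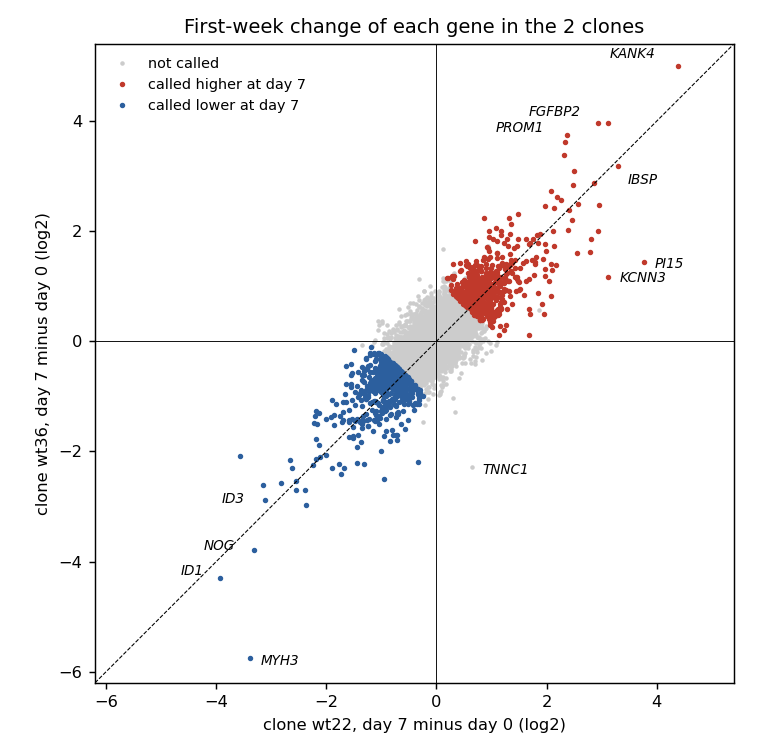
Change of each of 9731 genes over the first week in clone wt22 (horizontal axis, day 7 minus day 0, log2) against clone wt36 (vertical axis), with genes called higher in red, called lower in blue and not called in grey; the dashed line marks equal change. KANK4 and MYH3 stand at the ends, and PI15, KCNN3 and TNNC1 lie far from the line.

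The steepest rise was that of KANK4, an ankyrin repeat protein of a family that regulates the actin cytoskeleton. Its signal was 7.84 and 8.39 at day 7, against 3.45 and 3.38 at day 0 (log2 change 4.70, SE 0.16, adjusted p = 1.33e-06). Both day 0 arrays lie far under the floor, so the 25.9-fold ratio of the signals rests on a day 0 level that was not measured. FGFBP2, a secreted protein of the family that carries fibroblast growth factors, was well above the floor on every array, with 12.02 and 13.06 at day 7, against 8.90 and 9.10 at day 0 (log2 change 3.54, SE 0.16, adjusted p = 3.48e-06), which is 11.7-fold. Both day 7 arrays lay far above both day 0 arrays. The leading rises and falls were chosen among called genes whose arrays did not overlap, so this order of the days was fixed by the choice.

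Channels, receptors and enzymes were among the largest rises. TRPM8, the cation channel opened by cold and menthol, gave 9.24 and 9.34 at day 7, against 6.38 and 6.46 at day 0 (log2 change 2.87, SE 0.10, adjusted p = 1.33e-06), with the clones close together on both days. OXTR, the oxytocin receptor, had 9.87 and 9.71 at day 7, against 6.93 and 7.70 at day 0 (log2 change 2.47, SE 0.17, adjusted p = 2.91e-05). ALDH1A3, which makes retinoic acid from retinal, had 8.24 and 8.93 at day 7, against 5.29 and 6.44 at day 0 (log2 change 2.72, SE 0.15, adjusted p = 1.00e-05). In all of these both clones were high at day 7 and both low at day 0, as the choice required, although only OXTR was above the floor at day 0 in both.

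Further large rises were those of secreted and surface proteins. OLFML2B, an olfactomedin-like extracellular protein, gave 10.35 and 9.93 at day 7, against 7.86 and 6.84 at day 0 (log2 change 2.79, SE 0.19, adjusted p = 2.70e-05). LBP, the plasma protein that binds bacterial lipopolysaccharide, had 7.80 and 8.21 at day 7, against 4.87 and 4.25 at day 0 (log2 change 3.45, SE 0.32, adjusted p = 0.000105), and COLEC12, a scavenger receptor with a collagen-like stalk, had 7.94 and 7.71 at day 7, against 5.45 and 4.88 at day 0 (log2 change 2.66, SE 0.11, adjusted p = 3.18e-06). LIPG, the endothelial lipase, was higher in wt36 than in wt22 on both days. Its values were 6.73 and 8.70 at day 7, against 4.16 and 6.20 at day 0, and each clone rose by a like amount (log2 change 2.53, SE 0.08, adjusted p = 6.07e-07), a rise that passed with the clone as a block but not without it.

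PROM1, known as the stem cell antigen CD133, rose by 3.06, the zinc transporter SLC39A12 by 2.98, the peptidase inhibitor PI15 by 2.60 and the ubiquitin ligase RNF144A by 2.41. Of the 14 largest rises, 10 began with both day 0 arrays under the floor, as did 125 of all 613 genes that rose, and for these the size of the fold is uncertain. The plot of leading genes shows the arrays of these genes.

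**Figure D2:**
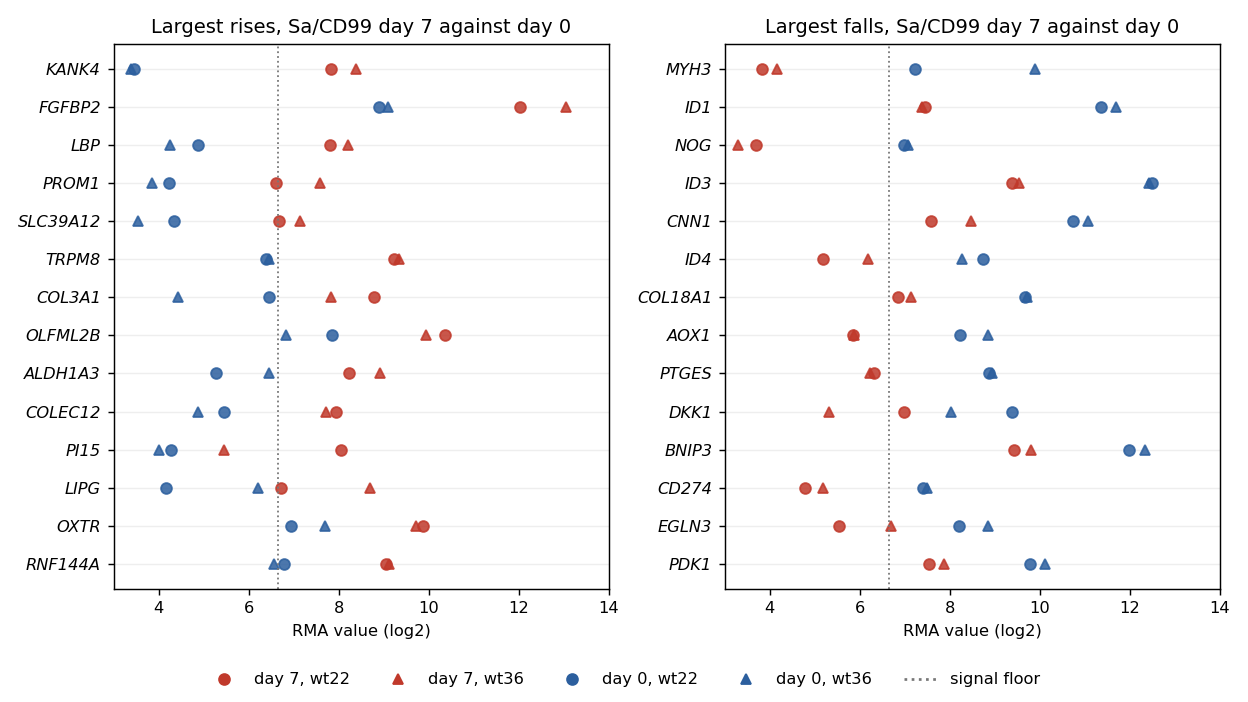
RMA values (log2, horizontal axes) of the 14 genes with the largest rise (left) and the 14 with the largest fall (right) among called genes whose arrays did not overlap, in red for day 7 and blue for day 0, with circles for wt22 and triangles for wt36; the dotted line marks the signal floor (6.64). Most risers start left of the floor, whereas all 14 fallers start right of it.

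The steepest fall was that of MYH3, the myosin heavy chain of embryonic skeletal muscle, with 3.83 and 4.15 at day 7, against 7.22 and 9.89 at day 0 (log2 change -4.57, SE 0.45, adjusted p = 0.000149). Its day 0 level differed between clones, and so did the fall (-3.39 in wt22 and -5.75 in wt36). Both day 7 arrays are under the floor, so the size of the fall and its place rest on levels that were not measured. ID1, an inhibitor of basic helix-loop-helix transcription factors that BMP signals switch on, was next, and here the clones were close together at 7.44 and 7.38 at day 7, against 11.37 and 11.68 at day 0 (log2 change -4.12, SE 0.10, adjusted p = 3.13e-07), a 17.4-fold fall. Both day 7 arrays lay far under both day 0 arrays, an order that the choice of leading genes fixed.

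PTGES, which makes prostaglandin E2, had 6.30 and 6.23 at day 7, against 8.86 and 8.93 at day 0 (log2 change -2.63, SE 0.17, adjusted p = 1.82e-05). CD274, the immune checkpoint ligand PD-L1, had 4.78 and 5.17 at day 7, against 7.40 and 7.48 at day 0 (log2 change -2.46, SE 0.13, adjusted p = 7.46e-06), and the aldehyde oxidase AOX1 had 5.85 and 5.88 at day 7, against 8.22 and 8.86 at day 0 (log2 change -2.68, SE 0.19, adjusted p = 2.80e-05). At day 7 all 3 were under the floor in both clones. This was so for 6 of the 14 largest falls and for 46 of the 567 genes that fell, so most falls ended at a measurable level. The other leading falls (NOG, ID3, ID4, CNN1, COL18A1, DKK1, BNIP3, EGLN3 and PDK1) belong to groups described below.

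Among 18 measured genes of the osteoblast list, 3 rose, 2 fell and 13 did not pass (median change 0.18, against -0.03 over all genes). IBSP, bone sialoprotein, which binds calcium and nucleates mineral, rose most, with 10.67 and 6.44 at day 7, against 7.37 and 3.26 at day 0 (log2 change 3.24, SE 0.44, adjusted p = 0.000758). wt22 made far more of it than wt36 on both days, so the day 0 array of wt22 lies above the day 7 array of wt36 and the groups overlap. The change was 3.30 in wt22 and 3.18 in wt36, but both wt36 arrays are under the floor, so the size of the second rests on levels that were not measured. The call depends on the block, as it was lost with a mean per group.

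RUNX2 rose modestly, to 12.31 and 12.25 at day 7, against 11.74 and 11.48 at day 0 (log2 change 0.67, SE 0.09, adjusted p = 0.000742). Of its 5 probe sets past the floor, 1 had the opposite sign, and the call was lost without the day 0 array of wt36 (0.52). The homeobox gene MSX1 rose by 0.62, a call lost without either array of wt36, while MSX2 fell to 5.86 and 6.60 at day 7, against 7.44 and 8.03 at day 0 (2.83-fold lower, adjusted p = 2.24e-05) and DLX3 had -0.92. These 3 encode homeobox factors of skull and limb development. Both day 7 arrays of MSX2 are under the floor, so the size of its fall is uncertain. ALPL, tissue-nonspecific alkaline phosphatase, had 11.28 and 11.38 at day 7, against 10.66 and 10.85 at day 0 (log2 change 0.58, SE 0.10, adjusted p = 0.00207), just short of the fold needed although its arrays did not overlap. SP7, or osterix, had 8.34 and 7.43 at day 7, against 8.31 and 7.86 at day 0 (log2 change -0.20, SE 0.11, adjusted p = 0.189) and did not pass.

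Collagen and matrix genes split, with 3 of 22 measured genes higher, 3 lower and 16 that did not pass (median 0.10). COL3A1, the chain of the fibrillar collagen of loose tissue, gave 8.78 and 7.82 at day 7, against 6.46 and 4.44 at day 0 (log2 change 2.85, SE 0.34, adjusted p = 0.000369), and its day 14 arrays were higher still, at 10.13 and 10.01. LAMA4, a laminin chain of vessel and muscle basement membranes, had 7.75 and 7.83 at day 7, against 5.55 and 5.21 at day 0 (log2 change 2.41, SE 0.15, adjusted p = 1.75e-05), and the basement membrane linker NID2 had 7.71 and 7.69 at day 7, against 6.34 and 6.45 at day 0 (log2 change 1.30, SE 0.15, adjusted p = 0.000378). Each of these was higher at day 7 in both clones. Both day 0 arrays of each lie under the floor, so the size of these rises is uncertain.

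On the falling side, COL18A1, whose fragment is endostatin, had 6.85 and 7.13 at day 7, against 9.68 and 9.71 at day 0 (log2 change -2.70, SE 0.08, adjusted p = 6.07e-07), and the clones were close together on both days. The type VI collagen chains COL6A2 (-1.49, SE 0.19) and COL6A1 (-0.94, SE 0.09) fell as well, and both of these calls were lost without the clone block. COL1A1, the main collagen of bone, had 12.96 and 13.28 at day 7, against 13.27 and 13.07 at day 0 (log2 change -0.05, SE 0.18, adjusted p = 0.855), with overlapping arrays. Fibronectin, FN1, had 0.20 (adjusted p = 0.213).

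Enzymes that modify and assemble collagen moved both ways. P4HA1, the catalytic subunit of the prolyl hydroxylase that uses ascorbic acid, fell to 9.38 and 9.69 at day 7, against 11.56 and 11.46 at day 0 (log2 change -1.98, SE 0.10, adjusted p = 6.66e-06). LOXL2, a crosslinking lysyl oxidase, fell (-1.34, adjusted p = 0.00254), as did SERPINH1, the collagen chaperone HSP47 (-0.62, adjusted p = 0.023). The SERPINH1 call was lost without the wt22 array of day 7 (-0.25) or of day 0 (-0.41), with array weights, and with the 6 arrays labelled Sa/CD99 alone. PCOLCE, which speeds the removal of the procollagen C-propeptide, was higher at 13.46 and 13.23 at day 7, against 12.22 and 12.10 at day 0 (log2 change 1.18, SE 0.08, adjusted p = 3.23e-05), and P4HA3 rose by 0.82. In all, 2 of 18 rose, 3 fell and 13 did not pass (median -0.08).

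Matrix proteases and their partners had 4 of 10 measured genes higher and 2 lower (median 0.38). PLAU, the urokinase that activates plasminogen, had 9.63 and 9.02 at day 7, against 7.45 and 7.64 at day 0 (log2 change 1.78, SE 0.20, adjusted p = 0.000271), while its receptor PLAUR fell to 8.76 and 8.59 at day 7, against 10.21 and 10.79 at day 0 (log2 change -1.83, SE 0.24, adjusted p = 0.000631). The receptor and its ligand thus moved in opposite directions in both clones. SERPINE2, an inhibitor of such serine proteases, rose by 1.18, the gelatinase MMP2 by 0.84 and its membrane activator MMP14 by 0.82, and the inhibitor TIMP3 fell by 0.61 on the log2 scale. The call of MMP14 was lost without the block and without the wt22 array of day 0, and that of TIMP3 without the wt22 array of day 7 or the wt36 array of day 0. MMP1, MMP3, MMP9 and MMP13 did not pass the floor.

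In the TGF-beta and BMP list 11 of 33 measured genes fell, 2 rose and 20 did not pass (median -0.22). BMPs signal through SMAD1, SMAD5 and SMAD9, and TGF-beta through SMAD2 and SMAD3, each joined by SMAD4; ID genes are early targets of BMP, and NOG, SMAD6, SMAD7 and BAMBI restrain the pathway. All 4 ID genes fell, ID4 to under the floor in both clones. ID3 had 9.38 and 9.54 at day 7, against 12.49 and 12.41 at day 0 (log2 change -2.99, SE 0.20, adjusted p = 2.24e-05), ID4 had 5.17 and 6.18 at day 7, against 8.73 and 8.26 at day 0 (log2 change -2.82, SE 0.29, adjusted p = 0.000185) and ID2 had 8.86 and 8.87 at day 7, against 10.30 and 10.28 at day 0 (log2 change -1.43, SE 0.14, adjusted p = 0.000143).

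Of the genes that restrain the pathway 4 fell. NOG, or noggin, which traps BMPs outside the cell, dropped under the floor in both clones, with 3.68 and 3.29 at day 7, against 6.99 and 7.07 at day 0 (log2 change -3.55, SE 0.14, adjusted p = 1.85e-06). SMAD7 (-1.39), SMAD6 (-1.32) and the decoy receptor BAMBI (-1.25) fell as well, each in both clones. GREM1, FST, SKIL, PMEPA1, TGIF1, SMURF1 and SMURF2, which restrain it too, lay between -0.57 and 0.29 and were not called. TGFB2, a TGF-beta ligand, had 7.49 and 8.26 at day 7, against 9.69 and 9.63 at day 0 (log2 change -1.78, SE 0.22, adjusted p = 0.0005), and the TGF-beta-induced matrix protein TGFBI fell as well (-1.32).

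SMAD1, the BMP signal transducer, went the other way and rose by 1.27, as did LTBP1, which stores latent TGF-beta in the matrix (0.89). SMAD4 had 8.31 and 8.63 at day 7, against 8.79 and 8.66 at day 0 (log2 change -0.25, SE 0.10, adjusted p = 0.081), SMAD2 had 8.85 and 8.93 at day 7, against 8.62 and 8.70 at day 0 (log2 change 0.24, SE 0.08, adjusted p = 0.0422) and TGFB1 had 10.73 and 9.79 at day 7, against 10.64 and 10.46 at day 0 (log2 change -0.29, SE 0.15, adjusted p = 0.154); none reached the fold needed for a call.

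Wnt signalling had 6 of 19 measured genes higher and 3 lower (median -0.00). DKK1, a secreted antagonist that removes Wnt co-receptors, fell to 6.98 and 5.32 at day 7, against 9.38 and 8.02 at day 0 (log2 change -2.55, SE 0.20, adjusted p = 5.33e-05), with wt22 above wt36 on both days. LEF1, a nuclear partner of beta-catenin, rose to 9.75 and 9.88 at day 7, against 8.51 and 8.73 at day 0 (log2 change 1.20, SE 0.07, adjusted p = 1.56e-05), and AXIN2, a feedback target of the pathway, to 8.08 and 8.74 at day 7, against 7.45 and 7.49 at day 0 (log2 change 0.94, SE 0.12, adjusted p = 0.000644). CCN4, which Wnt induces in bone, had 12.14 and 10.77 at day 7, against 10.10 and 9.67 at day 0 (log2 change 1.57, SE 0.23, adjusted p = 0.00108), a call lost without the clone block, and WNT11 rose by 1.03. Of the 19 measured genes 9 were above 0 and 10 below, and the activity of the pathway was not tested. FZD2, a Wnt receptor, and NOTUM, an enzyme that inactivates Wnts, fell too (-0.70 and -0.75). Notch signalling had 0 of 9 genes higher by limma and 2 lower, the ligand JAG1 (-1.03, SE 0.11) and HES4 (-1.26, SE 0.21), of which the first was lost without the block, with 5 at an unadjusted p under 0.05.

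Contractile genes that mark smooth muscle cells and myofibroblasts fell in 8 of 11 measured cases, with 1 higher and 2 that did not pass (median -0.96, -1.06 in wt22 and -0.81 in wt36). CNN1, calponin, which binds actin, had 7.57 and 8.46 at day 7, against 10.73 and 11.07 at day 0 (log2 change -2.88, SE 0.32, adjusted p = 0.000257), and TAGLN, or transgelin, had 10.33 and 10.81 at day 7, against 12.52 and 12.95 at day 0 (log2 change -2.16, SE 0.26, adjusted p = 0.00042). The light chain MYL9 fell to 10.41 and 10.21 at day 7, against 11.35 and 11.48 at day 0 (log2 change -1.10, SE 0.09, adjusted p = 6.52e-05). Smaller falls were those of ACTA2 (-0.89), SMTN (-0.71), TPM1 (-0.96) and SYNPO2 (-0.98). TPM2 fell too (-1.22, SE 0.32), although wt22 at day 7 (11.53) stayed above wt36 at day 0 (9.80), and this call was lost without the clone block. It was also lost without the wt22 array of day 7 or the wt36 array of day 0, and with the 6 arrays labelled Sa/CD99 alone.

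MYOCD, the coactivator that switches these genes on in smooth muscle, moved against them and rose to 7.22 and 9.48 at day 7, against 6.05 and 7.55 at day 0 (log2 change 1.55, SE 0.28, adjusted p = 0.00288), a call lost without the clone block, and its arrays overlap. MYH11, DES, ACTG2 and LMOD1, which mark mature smooth muscle, did not pass the floor. In a related list, 7 of 15 CCN and YAP target genes fell and 1 rose (median -0.58). CCN2, connective tissue growth factor, fell (-1.07, adjusted p = 0.0274). Its call was lost when the 6 arrays labelled Sa/CD99 were fitted alone, without either Sa/CD99 array of day 7, and without the wt36 array of day 0 (-0.51). CRIM1 (-1.64) and AJUBA, a partner of LATS kinases (-1.16), fell too, and CCN3 rose by 1.54, again only with the block.

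Genes of glycolysis and of the response to low oxygen held the largest number of falls of any list, 18 of 30 measured genes. As a share this was 60%, against 72.7% of the contractile list. Another 12 did not pass and 0 were higher by limma (median -0.67, -0.63 in wt22 and -0.85 in wt36), and 26 of the 30 had an unadjusted p under 0.05. Hypoxia-inducible factors, held down by the EGLN hydroxylases when oxygen is present, switch on glucose uptake, glycolysis and mitophagy genes. BNIP3, a mitophagy receptor, had 9.42 and 9.80 at day 7, against 11.97 and 12.33 at day 0 (log2 change -2.54, SE 0.07, adjusted p = 4.13e-07). PDK1, which keeps pyruvate out of mitochondria, had 7.54 and 7.87 at day 7, against 9.78 and 10.12 at day 0 (log2 change -2.24, SE 0.09, adjusted p = 2.42e-06), and the neuronal-type enolase ENO2 had 6.52 and 6.64 at day 7, against 8.25 and 9.05 at day 0 (log2 change -2.07, SE 0.18, adjusted p = 7.35e-05).

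EGLN3 fell to 5.53 and 6.68 at day 7, against 8.19 and 8.84 at day 0 (log2 change -2.41, SE 0.11, adjusted p = 4.12e-06) and EGLN1 was lower too (-1.13). Falls reached along the pathway, with hexokinase HK2 at -1.39, PFKP at -1.42, PGK1 at -0.83, the glucose transporter SLC2A1 at -0.81 and LDHA at -0.62. Not all hypoxia targets passed, and VEGFA was at -0.30, NDRG1 at -0.43 and ADM at -0.47, each with wt22 a little above 0 and wt36 below. GAPDH was at -0.18. Of the 18 called members 17 had no overlap between the days, as had 1110 of all 1180 called genes.

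Promoters of this group are shown because 18 of its 30 measured members fell. They run from 250 bases before to 50 after the start site, from RefSeq on GRCh38.p14, and 8156 of the 9731 genes had such a sequence. The core of the hypoxia response element, ACGTG on either strand, was searched after the values were seen. It lay in 9 of 17 promoters of called members (52.9%) and in 46.2% of the 26 of all measured members, against 27.9% of genes tested and 21.6% of all promoters of that length, and it is also contained in CACGTG. A match is a description and not a bound site. The called members with the largest falls that held it are BNIP3 (chr10:131981874-131982173, minus strand), where the capitals are a CACGTG that holds ACGTG on both strands from 134 bases upstream, and ENO2 (chr12:6914330-6914629, plus strand), where they mark ACGTG from 118 bases upstream.
BNIP3: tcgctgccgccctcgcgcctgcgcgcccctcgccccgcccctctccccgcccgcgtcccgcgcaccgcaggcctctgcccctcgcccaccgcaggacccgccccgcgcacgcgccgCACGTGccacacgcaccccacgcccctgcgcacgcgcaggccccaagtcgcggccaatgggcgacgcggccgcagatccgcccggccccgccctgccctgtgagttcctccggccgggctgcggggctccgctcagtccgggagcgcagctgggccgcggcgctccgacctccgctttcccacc
ENO2: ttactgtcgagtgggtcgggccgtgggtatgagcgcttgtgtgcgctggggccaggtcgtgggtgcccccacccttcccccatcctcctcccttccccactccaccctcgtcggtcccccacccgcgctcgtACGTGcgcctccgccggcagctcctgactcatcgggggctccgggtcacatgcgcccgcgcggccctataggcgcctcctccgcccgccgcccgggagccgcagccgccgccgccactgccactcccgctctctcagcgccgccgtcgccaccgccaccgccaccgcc

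Of 17 measured genes of sterol synthesis and uptake 10 rose, with 0 lower by limma and 7 that did not pass (median 0.78, 0.73 in wt22 and 0.80 in wt36). The transcription factor SREBF2 drives this pathway when membrane cholesterol runs low. HMGCS1, which makes the precursor of mevalonate, had 9.53 and 9.92 at day 7, against 8.43 and 8.11 at day 0 (log2 change 1.46, SE 0.19, adjusted p = 0.000567), and DHCR7, which completes cholesterol, had 9.75 and 9.72 at day 7, against 8.33 and 8.39 at day 0 (log2 change 1.38, SE 0.08, adjusted p = 1.44e-05). INSIG1, a sensor that retains SREBF proteins in the endoplasmic reticulum, had 11.25 and 11.47 at day 7, against 10.14 and 9.87 at day 0 (log2 change 1.36, SE 0.13, adjusted p = 0.000125), and the arrays of each of these lay apart by day.

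SQLE, MSMO1, IDI1, STARD4, NSDHL, HSD17B7 and FDPS made up the other called members, with rises of 0.66 to 1.20, while SREBF2 itself had 0.40, MVD 0.11 and SC5D -0.03. IDI1 had 1 of its 3 probe sets on the other side of 0. Fatty acid synthesis followed with 4 of 11 genes higher, 0 lower by limma and 10 at an unadjusted p under 0.05 (median 0.51). These were the elongase ELOVL6 at 7.83 and 7.95 at day 7, against 6.37 and 6.22 at day 0 (log2 change 1.59, SE 0.19, adjusted p = 0.000394), the desaturases SCD (1.09, SE 0.13) and FADS2 (0.66, SE 0.08), and SREBF1, the factor that drives them (0.93, SE 0.14). The call of FADS2 was lost without the wt22 array of day 7, and both day 0 arrays of ELOVL6 were under the floor.

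The binding site of NF-Y, CCAAT, which works beside SREBF sites, lay in 8 of 9 promoters of called sterol genes (88.9%) and in 87.5% of the 16 of all measured members, against 37.6% of genes tested and 35.7% of all promoters. The sterol regulatory element TCACNCCAC was in 0 of these 9 within the same window and in 1.1% of genes tested, from which nothing follows about the factor. Capitals mark CCAAT, or ATTGG where it lies on the other strand, in HMGCS1 (chr5:43313363-43313662, minus strand), from 155 and 100 bases upstream, and in DHCR7 (chr11:71448344-71448643, minus strand), from 94 and 48 bases upstream. They are shown as the largest rises that held the motif.
HMGCS1: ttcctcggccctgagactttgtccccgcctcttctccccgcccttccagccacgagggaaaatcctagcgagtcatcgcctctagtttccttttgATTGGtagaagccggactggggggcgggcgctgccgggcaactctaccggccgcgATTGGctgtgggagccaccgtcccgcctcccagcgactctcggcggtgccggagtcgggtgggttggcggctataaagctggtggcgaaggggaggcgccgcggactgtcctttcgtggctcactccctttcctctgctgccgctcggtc
DHCR7: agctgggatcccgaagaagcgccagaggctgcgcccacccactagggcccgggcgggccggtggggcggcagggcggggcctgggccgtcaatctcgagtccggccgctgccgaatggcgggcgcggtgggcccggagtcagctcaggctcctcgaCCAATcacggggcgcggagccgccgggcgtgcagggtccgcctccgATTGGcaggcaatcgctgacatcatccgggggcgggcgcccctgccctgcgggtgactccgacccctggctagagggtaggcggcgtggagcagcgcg

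Genes of mitosis fell in part, 12 of 38 measured, with 0 higher by limma, 26 that did not pass and 29 at an unadjusted p under 0.05 (median -0.53). The median was -0.63 in wt22 and -0.30 in wt36. PLK1, a kinase of mitotic entry and spindle assembly, had 8.65 and 8.11 at day 7, against 9.39 and 9.49 at day 0 (log2 change -1.06, SE 0.14, adjusted p = 0.000713), and UBE2C, which marks mitotic cyclins for breakdown, had 11.44 and 11.59 at day 7, against 12.16 and 12.28 at day 0 (log2 change -0.70, SE 0.07, adjusted p = 0.000146). The transcription factor MYBL2 had 8.69 and 8.75 at day 7, against 9.54 and 9.49 at day 0 (log2 change -0.80, SE 0.09, adjusted p = 0.000354). Both clones were lower at day 7 for each.

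In KIF23 (-1.56 in wt22 and -0.41 in wt36) and ANLN (-1.11 and -0.32), both of cytokinesis, and in the spindle kinase AURKA (-0.94 and -0.41), the fall was chiefly that of wt22, and these calls were lost without its arrays. MKI67, the proliferation marker Ki-67, had 8.77 and 8.55 at day 7, against 8.96 and 8.87 at day 0 (log2 change -0.25, SE 0.09, adjusted p = 0.0558), and CDK1, ASPM and CENPE had -0.05, 0.02 and 0.45. In all, 34 of the 38 measured genes of the list were below 0 and 4 above. DNA replication had 3 of 38 genes lower, the thymidine kinase TK1 (-0.95, SE 0.07), E2F8 (-0.73, SE 0.13) and CDC6 (-0.62, SE 0.11), and 1 higher, the polymerase subunit POLE2 (0.75, SE 0.07), with MCM2 to MCM6 between 0.19 and 0.55 and not called (median -0.18). POLE2 was not called without the block, E2F8 without either wt22 array, and CDC6 without the wt22 array of day 7 or the wt36 array of day 0 (-0.47).

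The cell cycle homology region TTTGAA, typical of genes of late cycle, lay in 7 of 10 promoters of called mitotic genes (70.0%) and in 65.6% of the 32 of all measured members, against 9.61% of genes tested and 15.4% of all promoters. CCAAT was in 8 of these 10 (80.0%). Capitals mark TTTGAA in PLK1 (chr16:23678639-23678938, plus strand), from 29 bases upstream, and in KIF23 (chr15:69414099-69414398, plus strand), from 55 bases upstream, the largest falls of the list that held it.
PLK1: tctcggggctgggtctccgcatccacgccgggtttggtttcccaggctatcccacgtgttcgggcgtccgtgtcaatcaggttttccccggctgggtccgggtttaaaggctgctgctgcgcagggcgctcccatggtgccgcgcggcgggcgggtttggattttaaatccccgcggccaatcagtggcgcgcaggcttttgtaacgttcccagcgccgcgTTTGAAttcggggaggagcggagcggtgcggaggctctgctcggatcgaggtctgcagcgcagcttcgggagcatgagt
KIF23: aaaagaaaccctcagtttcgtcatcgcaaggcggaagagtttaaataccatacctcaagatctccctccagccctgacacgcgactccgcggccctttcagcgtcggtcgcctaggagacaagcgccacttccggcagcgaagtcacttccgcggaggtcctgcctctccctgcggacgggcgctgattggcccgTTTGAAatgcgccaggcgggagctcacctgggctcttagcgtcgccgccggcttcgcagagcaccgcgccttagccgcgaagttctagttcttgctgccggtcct

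Of 21 measured genes in the list of CDK inhibitors, D cyclins and quiescence genes 3 were higher and 2 lower (median 0.03). GAS1, a growth arrest membrane protein, had 9.27 and 8.64 at day 7, against 8.33 and 7.84 at day 0 (log2 change 0.87, SE 0.09, adjusted p = 0.000227), and CDKN1C, the inhibitor p57, had 6.74 and 6.25 at day 7, against 5.97 and 5.64 at day 0 (log2 change 0.69, SE 0.16, adjusted p = 0.0105). The CDKN1C arrays of day 0 were under the floor, and its call was lost after quantile normalization (0.38). The call was also lost without the wt22 array of day 7 (0.45) or the wt36 array of day 0 (0.56). The antiproliferative factor BTG1 rose by 0.61. GAS1 was not called without the block, nor BTG1 without either wt22 array. CDKN2D, the inhibitor p19, fell by 0.79 on the log2 scale. CDKN1A, p21, showed the clones apart, with 10.66 and 9.37 at day 7, against 9.57 and 9.44 at day 0 (log2 change 0.51, SE 0.23, adjusted p = 0.109), high in wt22 at day 7 alone. CCND1, cyclin D1, stayed under the floor, and MYC had -0.16 (adjusted p = 0.277). In the list of ribosome biogenesis and MYC targets, of 20 measured genes only the polyamine enzyme ODC1 fell (-0.74, SE 0.13, not called without the wt22 array of day 7). In it 0 rose by limma, and 6 had an unadjusted p under 0.05.

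Genes that ATF4 induces when amino acids run short fell in 8 of 21 cases and rose in 2 (median -0.36). Asparagine synthetase ASNS had 9.23 and 9.77 at day 7, against 10.55 and 10.38 at day 0 (log2 change -0.97, SE 0.14, adjusted p = 0.00108), and the serine enzyme PSAT1 (-1.02), the hormone STC2 (-1.42) and the cystine carrier SLC7A11 (a 1.99-fold fall) were lower as well. VLDLR, a lipoprotein receptor, had 7.64 and 7.73 at day 7, against 9.06 and 9.43 at day 0 (log2 change -1.56, SE 0.12, adjusted p = 4.31e-05). CEBPB and ATF3, transcription factors of the same response, rose by 0.80 and 0.63. Without the wt22 array of day 0, SLC7A11 (-0.51) and CEBPB (0.55) were not called. The chaperones of the endoplasmic reticulum had 0 of 19 called in either direction by limma and 10 at an unadjusted p under 0.05, with HSPA5 at -0.04 and DDIT3, of the ATF4 list, at 0.04.

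The NRF2 list had 4 of 23 lower and 0 higher by limma (12 at an unadjusted p under 0.05), led by the quinone reductase NQO1 at 8.57 and 9.19 at day 7, against 9.89 and 10.12 at day 0 (log2 change -1.13, SE 0.09, adjusted p = 6.75e-05). GCLM, which makes the glutathione precursor (-1.05), and the thioredoxin reductase TXNRD1 (-0.82) fell, and HMOX1 was at 0.07. Of 27 lysosomal and autophagy genes 5 were higher and 1 lower (median 0.26, 0.49 in wt22 and 0.14 in wt36). CTSS, a cathepsin, had 8.02 and 7.11 at day 7, against 5.89 and 5.38 at day 0 (log2 change 1.93, SE 0.12, adjusted p = 1.48e-05), and the peptidase TPP1 had 10.14 and 9.78 at day 7, against 8.95 and 8.94 at day 0 (log2 change 1.01, SE 0.09, adjusted p = 8.47e-05); GABARAPL1, of autophagosomes, fell by 0.60. Both day 0 arrays of CTSS were under the floor. The other rises, of CTSO, NEU1 and NPC2, were not called without the wt22 arrays (0.46, 0.44 and 0.52), nor GABARAPL1 without those of wt36 (-0.34) or GCLM without those of wt22.

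Among apoptosis regulators 3 of 17 rose and 2 fell (median -0.05). PMAIP1, the BCL2 family activator NOXA, had 9.48 and 8.88 at day 7, against 7.91 and 7.45 at day 0 (2.83-fold higher, adjusted p = 5.32e-06). BCL2L11, or BIM, rose by 0.63 and the death receptor FAS by 0.65, BOK fell by 0.84, and the remaining fall is that of BNIP3. FAS was not called without the wt36 array of day 0 (0.32), and BCL2L11 and BOK were not called without the block or without the wt22 array of day 7. Of 19 genes around AKT and PI3 kinase, 1 rose, the phosphatase INPP4B (0.93, SE 0.31, adjusted p = 0.0415 by limma), 0 fell by limma and 8 had an unadjusted p under 0.05. The change of INPP4B was 0.25 and not called without the wt36 array of day 0. Its call was also lost without the block, with a block in both lines and with the 6 arrays labelled Sa/CD99 alone. So it was without either Sa/CD99 array of day 7 and without any 1 of the SaOS-2 arrays. AKT1 had 8.93 and 8.80 at day 7, against 8.89 and 9.12 at day 0 (log2 change -0.14, SE 0.10, adjusted p = 0.3).

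In the list of insulin-like growth factors and their binding proteins 1 of 10 rose and 3 fell. IGFBP7, which binds insulin-like growth factors weakly, fell (-1.47), as did IGFBP6 (-0.87), and IRS2 rose by 0.78, which was 0.36 and not called without the wt22 array of day 0. IGFBP3 fell by 1.27, but this rests on wt36, which had -2.20 beside -0.34 in wt22, and without its day 0 array the change was -0.26 and not called. The IGFBP3 call was also lost without the block, with the 6 arrays labelled Sa/CD99 alone, and without any 1 of the SaOS-2 arrays. In the immediate early list 3 of 16 rose and 1 fell. PHLDA1 had 8.99 and 8.28 at day 7, against 7.72 and 7.05 at day 0 (log2 change 1.25, SE 0.08, adjusted p = 1.60e-05), KLF4 rose by 0.96, and FOSL1, of the AP-1 family, fell by 1.14. KLF4 was not called without the block, nor FOSL1 without the wt22 array of day 7. FOS, DUSP6 and SPRY4 did not pass the floor.

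Interferon-stimulated genes rose in 8 of 20 measured cases, with 0 lower by limma, 12 that did not pass and 14 at an unadjusted p under 0.05 (median 0.41). IFITM1, which blocks virus entry, had 10.35 and 9.98 at day 7, against 9.25 and 8.75 at day 0 (log2 change 1.16, SE 0.15, adjusted p = 0.000569), IFI44 had 9.70 and 9.41 at day 7, against 8.60 and 8.22 at day 0 (log2 change 1.15, SE 0.13, adjusted p = 0.00034), and IRF9, a subunit of the factor that interferon activates, had 9.65 and 8.93 at day 7, against 8.43 and 7.98 at day 0 (log2 change 1.09, SE 0.09, adjusted p = 5.90e-05). IFITM2, IFITM3 and IFI16 rose by 0.90, 0.82 and 0.80, the last not called without the wt36 array of day 0 (0.43). The IFI16 call was also lost without either Sa/CD99 array of day 7 and with the 6 arrays labelled Sa/CD99 alone. The classic targets ISG15 (-0.28), IFIT1 (-0.17) and IFIT3 (-0.05) did not pass, and MX1, OAS1 and IFI27 were under the floor.

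The interferon-stimulated response element core (TTTC, then NN, then TTTC, on either strand), searched after the values were seen, lay in 3 of 7 promoters of the called members (42.9%) and in 11 of 18 of all measured ones (61.1%), against 2.65% of genes tested and 3.65% of all promoters. Capitals mark it, or its reverse complement, in IFITM1 (chr11:313790-314089, plus strand), from 40 and 6 bases upstream, and in IFI44 (chr1:78649539-78649838, plus strand), from 18 bases upstream, the largest rises that held it.
IFITM1: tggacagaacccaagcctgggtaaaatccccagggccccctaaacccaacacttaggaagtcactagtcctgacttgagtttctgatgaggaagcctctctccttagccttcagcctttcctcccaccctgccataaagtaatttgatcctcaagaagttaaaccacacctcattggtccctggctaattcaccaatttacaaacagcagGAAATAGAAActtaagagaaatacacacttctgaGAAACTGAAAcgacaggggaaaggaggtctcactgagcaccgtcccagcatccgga
IFI44: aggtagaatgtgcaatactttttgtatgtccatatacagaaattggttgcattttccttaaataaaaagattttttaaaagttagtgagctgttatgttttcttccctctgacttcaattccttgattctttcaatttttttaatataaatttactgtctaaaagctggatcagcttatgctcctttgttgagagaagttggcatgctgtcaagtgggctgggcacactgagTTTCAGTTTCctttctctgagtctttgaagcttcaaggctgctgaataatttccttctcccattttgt

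Of 24 cytokine and NF-kB genes 8 passed the floor, and LIF (-1.38, SE 0.26) and IL11 (-1.08, SE 0.32), both ligands of gp130 receptors, fell while 0 rose by limma. IL11 was at -0.36 and not called without the wt36 array of day 0. Its call was also lost without the block, without either Sa/CD99 array of day 7 and with the 6 arrays labelled Sa/CD99 alone. LIF was not called without the wt22 array of day 7. Markers of other cell types were few. Of 14 cartilage genes 3 were measured, and of these HAPLN1, the link protein, had 12.41 and 12.38 at day 7, against 11.35 and 11.30 at day 0 (log2 change 1.07, SE 0.17, adjusted p = 0.00164) and SOX6 had 7.28 and 7.24 at day 7, against 6.20 and 6.13 at day 0 (log2 change 1.09, SE 0.10, adjusted p = 0.000109), while ACAN, COL2A1 and SOX5 were under the floor and SOX9 was at -0.25. Both day 0 arrays of SOX6 were under the floor. For fat cells 2 of 14, for blood and endothelial cells 1 of 15 and for epithelial cells 2 of 9 listed genes were measured, and 0 of these 5 were called by limma (1 at an unadjusted p under 0.05). Defining markers of these cells, such as ADIPOQ, PTPRC, PECAM1, CDH1 and KRT8, were under the floor.

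Some genes set the clones apart over the week. TNNC1, a troponin, had 6.93 and 5.05 at day 7, against 6.28 and 7.32 at day 0, a rise of 0.65 in wt22 and a change of -2.27 in wt36, so its mean of -0.81 describes neither clone. ADM, the vasodilator peptide adrenomedullin, had 9.80 and 8.95 at day 7, against 9.46 and 10.23 at day 0, likewise in opposite directions. PI15 changed by 3.77 in wt22 and 1.44 in wt36, and the potassium channel KCNN3 by 3.12 and 1.17. MYH3 and IGFBP3, given above, complete the 6 genes with the widest gap. They were chosen for that gap, so no test applies.

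The parental line gives the background of the same week. Of the 613 genes that rose in the clones, 611 had the same sign in SaOS-2 and 474 were called there (8.16% of all genes tested were), and of the 567 that fell 565 had the same sign and 432 were called (7.16%). The median change of the risers was 0.83 in the clones and 0.85 in SaOS-2, and that of the fallers -0.79 and -0.80. ID1 changed by -4.12 in the clones and -4.78 in SaOS-2, CNN1 by -2.88 and -2.88, HMGCS1 by 1.46 and 1.46, and BNIP3 by -2.54 and -2.78. The list medians lay close too, as for glycolysis (-0.67 and -0.77) and mitosis (-0.53 and -0.54), with interferon genes at 0.41 and 0.76.

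**Figure D3:**
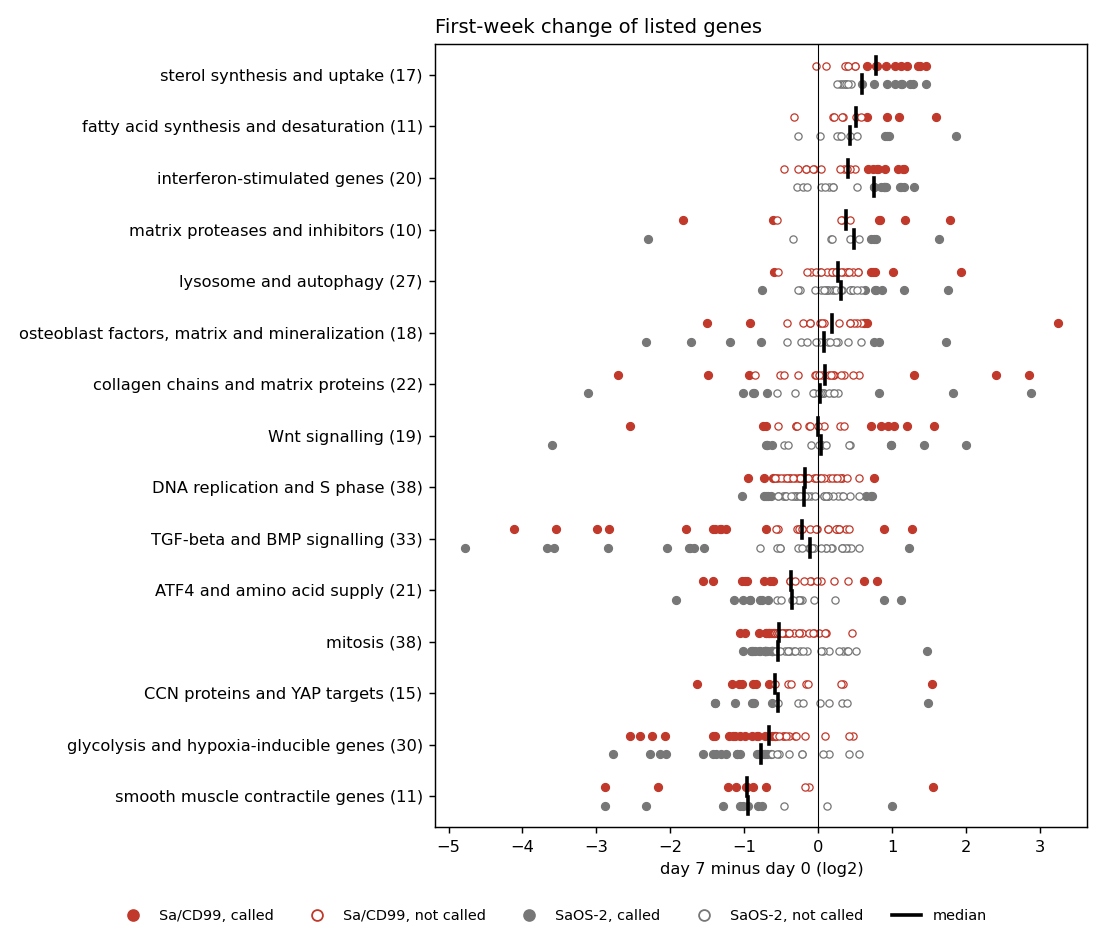
Change over the first week (day 7 minus day 0, log2, horizontal axis) of the measured genes of 15 lists, with the number measured in brackets, in red for Sa/CD99 and, under it, in grey for SaOS-2; filled points are called, open points are not, and black bars are medians. Sterol genes lie to the right and smooth muscle and glycolysis genes to the left in both lines.

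Tested as a difference of the changes (Sa/CD99 minus SaOS-2), 1 gene of 9731 was called (0.0103%), and 3 of 18677 probe sets (0.0161%), 1 higher and 2 lower, by limma. At an unadjusted p under 0.05 there were 1702 probe sets by limma, where 5% of those tested is 934. The number called also moved when 1 Sa/CD99 array of day 0 was left out. With all arrays of a clone left out, a choice added after the data were seen, 1 Sa/CD99 array remained on each day. All of the spread then came from the SaOS-2 arrays, so the count from that fit is not given. The gene was PPFIBP2, a liprin that acts in cell adhesion. It gave 6.79 and 6.69 at day 7, against 5.44 and 5.42 at day 0 in the clones, and 6.25 and 6.38 at day 7, against 6.20 and 6.09 at day 0 in SaOS-2 (difference 1.14, SE 0.11, adjusted p = 0.0353). Of these 8 arrays 6 lie under the floor, those of the clones at day 0 and all of SaOS-2, so the difference rests on levels that were not measured. The call was absent with the block in both lines, without any block, and with the 8 arrays of days 7 and 0 alone. IBSP changed by 3.24 in the clones and 1.73 in SaOS-2, SP7 by -0.20 and -1.19, and DLX3 by -0.92 and -2.33, differences that did not pass.

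Day 14 shows how the first week's changes went on. The day 14 arrays are the same clones, and the comparisons share the day 7 and day 0 arrays, so the values are set side by side only. The genes were chosen by their day 7 change, so the day 14 values are a description. By day 14, 422 of the 613 risers and 377 of the 567 fallers had moved back from their day 7 level by any amount, however small. The same share over all genes tested was not taken. The median of the risers was 0.83 at day 7 and 0.61 at day 14, both against day 0, and that of the fallers -0.79 and -0.69. HMGCS1 had 8.46 and 9.15 at day 14, close to its day 0 level in wt22, and IFI44 was near its day 0 level at 8.30 and 8.45. ID1 stayed low at 7.01 and 7.13 and BNIP3 at 9.29 and 9.66, while IBSP stood at 10.05 and 8.12, lower than at day 7 in wt22 and higher in wt36. CNN1 was at 8.87 and 7.96, and PLK1, at 9.33 and 9.27, was near its day 0 level in both clones.

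**Figure D4:**
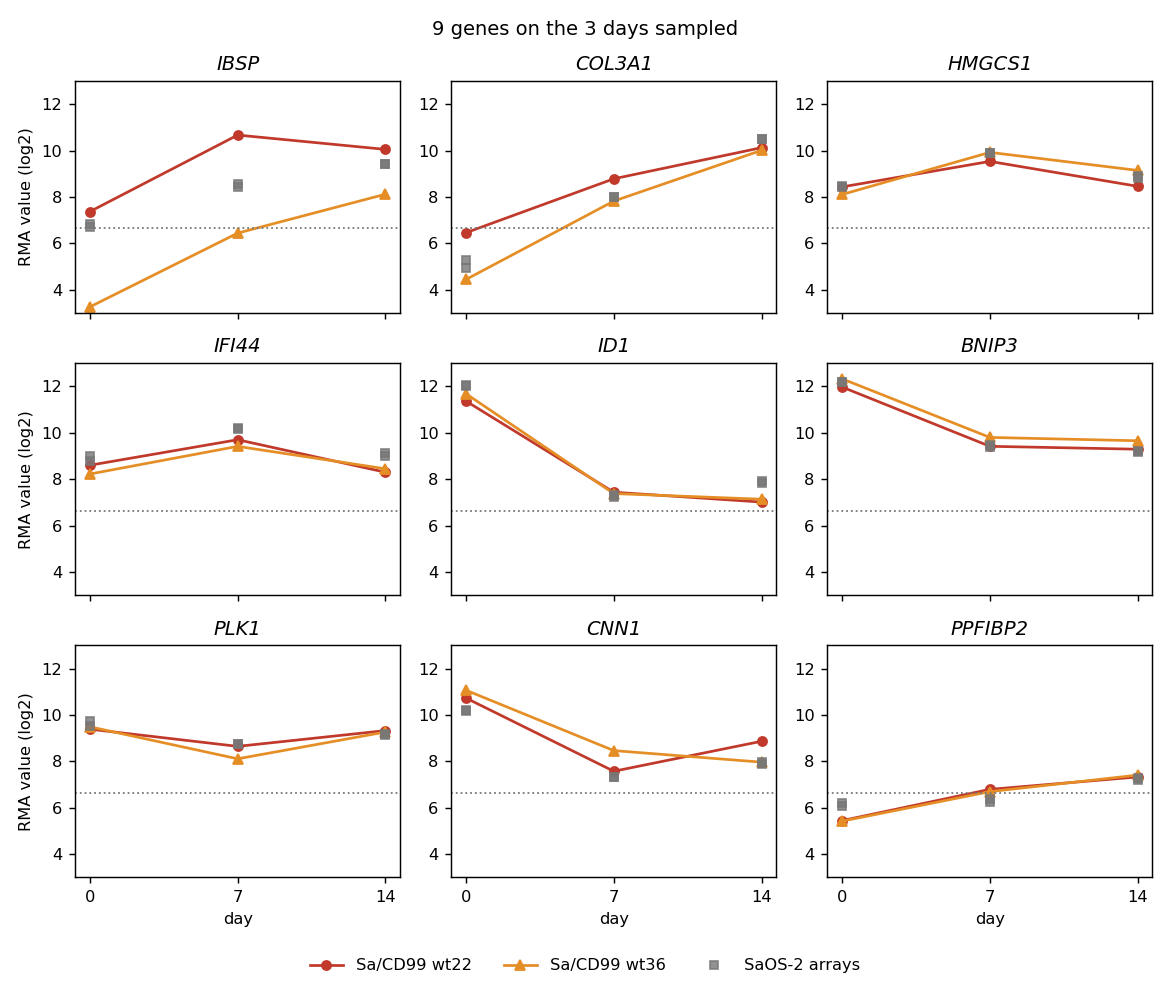
RMA values (log2, vertical axes) of 9 genes at days 0, 7 and 14, with lines for clones wt22 (red circles) and wt36 (orange triangles), grey squares for the 2 SaOS-2 arrays of each day and a dotted line at the signal floor (6.64). ID1 and BNIP3 stay low after day 7, PLK1 and IFI44 turn back, and the clones differ most for IBSP.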

How the data were processed

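Total RNA of 4 arrays labelled Sa/CD99 (days 7 and 0) was compared on Affymetrix HG-U133 Plus 2.0 arrays, within a fit to all 12 arrays of the series. The authors deposited log2 values made with RMA from the affy package (the sources used here give no version of affy or RMA). RMA corrects background, sets all arrays to 1 distribution and summarizes probes, so that a shift shared by most genes would be removed. No scanner files were used here. The 62 control probe sets were left out, and the floor of 100 on the linear scale in 4 of 12 arrays, taken from the study, left 18677 probe sets. Their number of arrays limits the precision.

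limma 3.58.1 in R 4.3.3 was fitted with a day effect for each line, clone wt22 or wt36 as a fixed block and 1 baseline for SaOS-2, which left 5 residual degrees of freedom (3.78 prior). All lines share 1 spread, although the clones vary more than the parental arrays. The median SE was 0.0984 for a change and 0.139 for a difference of changes. P-values were two-sided and Benjamini-Hochberg adjusted over all probe sets tested. They measure only the spread of these arrays around the fit, that of the SaOS-2 arrays included. A steady difference between the clones is taken out by the block. The clone numbers are those of the cell lines and pair the arrays, and the deviations of a pair at different days correlated by 0.31 to 0.61.

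Gene names came from the platform annotation, updated by gene ID to RefSeq of GRCh38.p14 (41037 of 41091 probe sets with 1 gene). Named were the 14 largest rises and falls without overlap, up to 6 called members of each of 30 lists, 18 fixed genes, genes called in the difference and the 6 widest gaps between clones; members named beside them that did not pass were chosen after their values were seen. The lists and the members were chosen with earlier results of these data known. The fit was tested on simulated data. Alternatives covered the block, filter, normalization, variance prior, array weights, subsets of arrays and each array left out.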

Additional observations from a re-analysis of the deposited data

Results flagged for a closer look

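3 probe sets changed over the first week by different amounts in Sa/CD99 and in SaOS-2 by limma's test of the difference itself (adjusted p = 0.0353 for each). PPFIBP2 rose more in Sa/CD99, with a difference of 1.14 (SE 0.11) and the array values given above. THY1, a surface glycoprotein of mesenchymal cells, differed by -1.59 (SE 0.16). It read 5.11 and 5.72 at day 7, against 5.84 and 6.24 at day 0 in Sa/CD99, all under the floor, and 8.74 and 8.97 at day 7, against 8.03 and 7.74 at day 0 in SaOS-2. PLXDC1, a plexin domain protein, differed by -1.52 (SE 0.16). It read 5.28 and 5.41 at day 7, against 4.88 and 5.03 at day 0 in Sa/CD99, also under the floor, and 6.84 and 6.73 at day 7, against 4.74 and 5.00 at day 0 in SaOS-2. Neither of these 2 probe sets is the brighter one that stands for its gene.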

How the results depend on the processing

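With 2 clones, the changes rest on 1 array per clone and day. Without a replicate block 1300 probe sets were higher and 975 lower, all 2275 of them among the 2566 called with it, and 0 were called in the difference. The count of higher probe sets was 2944 with no filter on signal and 887 with a floor of 200; the first tests more probe sets and the second fewer. The count for the difference, 3 as reported, was 0 with the block in both lines, with a floor of 200, with a trended and robust prior, with array weights and with the 8 arrays of days 7 and 0 alone, 7 with no filter and 10 after quantile normalization. Leaving out 1 array at a time gave 1327 to 2072 higher, 968 to 1360 lower and 0 to 58 in the difference, 58 being without the wt22 array of day 0 and 45 without the wt36 array of day 0. Leaving out all arrays of a clone, added after the data were seen, gave 502 in the difference without wt22 and 530 without wt36. The cause of these shifts was not tested. TNNC1, not called, lay between -2.40 and 0.78 without 1 array, turning positive without the wt36 array of day 0 (0.78) and without all arrays of wt36 (0.65). Of 138 named genes with a call, 87 kept it under every alternative that included them; 31 lost it without the wt22 array of day 7, 22 with the 6 arrays labelled Sa/CD99 alone and 21 without the block. Signals under the floor limit the size of 125 rises and 46 falls.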

Other observations

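The gene families given here were picked after the values were seen and were gathered by gene symbol. Of 71 genes with symbols of the respiratory chain, NDUFB2-AS1, NDUFV1-DT and ATP5IF1 among them, 0 were called in either direction by limma (median -0.08, 29 at an unadjusted p under 0.05). Ribosomal proteins had 0 of 49 called (median 0.02, 4 at an unadjusted p under 0.05). Of 15 HOX genes 0 were called (6 at an unadjusted p under 0.05). Of 34 genes with symbols of proteasome subunits, PSMC3IP among them, 1 rose and 1 fell (median -0.25, against -0.03 over all genes, and 23 at an unadjusted p under 0.05). Of 6 metallothioneins 2 fell, MT1E (-0.74) and MT1F (-0.61), and 0 rose by limma (median -0.46, 5 at an unadjusted p under 0.05). Of 17 genes with symbols of tubulins, TUBGCP2 to TUBGCP5 among them, 4 fell, TUBB6 (-0.91), TUBB2A (-0.84), TUBA4A (-0.75) and TUBB2B (-0.66), and 0 rose by limma (10 at an unadjusted p under 0.05).

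Of 15 genes with symbols of integrins, the binding proteins ITGB1BP1 and ITGB3BP among them, 2 rose and 3 fell. ITGB2, the integrin chain of leukocytes, had 5.38 and 5.43 at day 7, against 7.38 and 7.49 at day 0 (log2 change -2.03), and ITGA6, a laminin receptor chain, had 6.42 and 6.90 at day 7, against 7.58 and 7.46 at day 0 (-0.86), while its partner ITGB4 had 9.22 and 8.78 at day 7, against 7.15 and 7.96 at day 0 (1.45). The 2 laminin receptor chains thus moved in opposite directions, and ITGB2 was under the floor at day 7 in both clones. Of 27 genes with symbols of semaphorins, plexins, ephrins and ephrin receptors, the antisense EPHA5-AS1 among them, 2 rose and 4 fell. SEMA6D, a guidance signal, had 9.73 and 9.73 at day 7, against 7.76 and 7.96 at day 0 (1.88), and EPHA5 was at 0.69, while EPHA2 was at -0.89 and PLXNA2 at -0.83. Of 175 genes with symbols of solute carriers 14 rose and 9 fell, and SLC5A3, which imports inositol, had 10.53 and 10.61 at day 7, against 8.90 and 8.75 at day 0 (1.75).

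Probe sets that the annotation ties to no gene rose more often than others. Of 1321 past the floor, 255 were called higher (19.3%) and 58 lower (4.39%), with a median change of 0.09 (0.07 in wt22 and 0.11 in wt36). Probe sets that stand for a gene had 6.3% higher and 5.83% lower, and dimmer probe sets of named genes had 8.17% and 6.5%. In SaOS-2 the probe sets with no gene were higher in 17% and lower in 4.84%. Their median level over the arrays, 7.73, was lower than the 8.63 of those that stand for a gene, and its part in the share was not tested.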
